A study of Saccharomyces cerevisiae with 58 samples.

Results

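The 38 nuclear genes described here encode subunits of the oxidative phosphorylation chain of Saccharomyces cerevisiae. They were taken by gene symbol and role, and no measured value entered the rule, although the set was proposed with earlier results of these data known. Each of the 38 was read by exactly 1 probe set, among the 5716 S. cerevisiae probe sets that were tested. By role, 2 members are NADH dehydrogenases, 4 belong to complex II, 9 to complex III, 9 to complex IV and 12 to ATP synthase, and 2 encode cytochrome c.

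Budding yeast lacks the multi-subunit complex I of animals. Single-protein NADH dehydrogenases, Ndi1 on the inner face of the inner mitochondrial membrane and Nde1 on its outer face, pass electrons to ubiquinone. Succinate dehydrogenase (complex II) does the same from succinate, the cytochrome bc1 complex (complex III) passes electrons on to cytochrome c, and cytochrome c oxidase (complex IV) hands them to oxygen. ATP synthase uses the proton gradient that results. In glucose medium yeast ferments, and many genes of this chain are transcribed below the rate seen on respiratory carbon sources.

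RNA from a wild type and an rpb6 mutant was hybridised to 58 Affymetrix Yeast 2.0 arrays. Both strains were MATalpha ura3-52 his3delta200 lys2delta201 ade2. In the mutant the chromosomal RPB6 gene was replaced with HIS3, and a centromeric LEU2 plasmid carried an rpb6 allele with a glutamine-to-arginine substitution. Rpb6 is a subunit shared by the nuclear RNA polymerases, and the substitution lowers the recruitment of Rpb4 and Rpb7 to polymerase II. The question of the study was whether this pair of subunits ties mRNA production to mRNA decay in stress. Cells grew in YPD at 30 °C to mid log phase, and the mutant grew more slowly, so a difference between the strains cannot be told apart from a difference in growth rate.

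Each strain was sampled in 4 courses, with 1 array a time point from 1 culture. H2O2 at 0.3 mM was followed for 45 min, and the DNA-methylating agent MMS at 0.1% for 180 min. The decay courses ran for 50 min after 1,10-phenanthroline, which stops transcription, either alone (the reference) or with 0.3 mM H2O2 given 7 min earlier. Untreated cells are the 0 min samples of all courses except the decay course in H2O2, which gives 3 arrays for each strain. All levels are log2 RMA values, which are relative to the other mRNAs on the same array. A fall in mRNA per cell that all genes share, or a difference in the number of cells, cannot be told apart from no change on this scale.

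The number of arrays limits the precision, and within a course the time points of 1 culture stand in for replicates. All 38 members lay above the 95th percentile of the 1747 Schizosaccharomyces pombe probe sets on the same chip (log2 5.11), as did 97.6% of the tested probe sets. As a check of the strains, RPO26, the gene of Rpb6, read 0.60 lower on the log2 scale in the untreated mutant (SE 0.091, limma adjusted p = 0.015). HIS3 read 0.82 higher there (SE 0.16, limma adjusted p = 0.027). The mean HIS3 level over all arrays of both strains was 11.12. A difference of 0.82 leaves wild type far above 5.11, although its genotype names a his3 deletion. The higher reading thus does not show that HIS3 was absent from wild type, and the source of the wild-type signal was not tested. The substitution itself cannot be seen by the probes. STE3, the pheromone receptor gene of MATalpha cells, read 12.4 ± 0.33 in wild type and 11.5 ± 0.53 in the mutant (SD, n = 3). On average over all arrays, MFA1, MFA2 and STE2, genes of the opposite mating type, also lay above the S. pombe percentile. The marker genes URA3, LYS2 and ADE2 did so too. A level above that percentile thus does not by itself identify the mating type or an intact marker gene.

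The first comparison asked whether the untreated mutant differed from wild type. Levels here are relative to the other mRNAs of an array. With spiked-in RNA as the standard, the paper reports lower mRNA levels in the mutant genome-wide, which this scale cannot show. All 38 members had a higher mean level in the mutant, by a median of 0.34 on the log2 scale, while the median over all 5716 probe sets was -0.02 and 2593 of them lay above 0. In limma 12 members passed as higher and 0 as lower, where 3.92% of all probe sets passed as higher and 3.69% as lower. The mutant was higher in each of the 3 array sets for 31 of 38 members (81.6%), against 22.0% of all probe sets. Among complexes the median difference was 0.39 for complex II, 0.40 for complex III, 0.27 for complex IV and 0.25 for ATP synthase.

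Complex III held 5 of the 12 passing genes. COR1, a core protein of that complex, read 11.90, 11.96 and 12.07 in the H2O2, MMS and decay sets of wild type. The mutant read 12.30, 12.21 and 12.60, so the strains did not overlap (difference 0.40, SE 0.071, limma adjusted p = 0.023). CYT1, the cytochrome c1 gene, differed by 0.42, RIP1, the Rieske iron-sulfur protein gene, by 0.44, QCR2 by 0.33 and QCR7 by 0.30 (limma adjusted p 0.022 to 0.046). QCR8 showed the smallest difference of complex III, 0.22, and did not pass.

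SDH4, which encodes a membrane anchor of succinate dehydrogenase, was the 1 complex II gene that passed. It read 11.80, 11.79 and 12.14 in wild type and 12.20, 12.15 and 12.63 in the mutant, again without overlap (difference 0.42, SE 0.061, limma adjusted p = 0.014). SDH1, the flavoprotein gene, had a larger mean difference of 0.52 that did not pass, with 0.16, 0.51 and 0.88 in the 3 sets. SDH3 had the smallest of the complex, 0.15.

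In ATP synthase the stator genes ATP4, ATP5 and ATP14 passed. ATP4 read 12.92, 12.74 and 12.87 in wild type against 13.31, 13.00 and 13.23 in the mutant (difference 0.34, SE 0.048, limma adjusted p = 0.013). The differences of ATP5 and ATP14 were 0.30 and 0.38 (limma adjusted p = 0.02 and 0.025), and ATP20 had the smallest of all members, 0.07. COX13 was the 1 passing gene of complex IV (0.47, limma adjusted p = 0.044), and COX5A stood lowest in that complex at 0.20. NDE1 passed at 0.40 (SE 0.063, limma adjusted p = 0.016), whereas NDI1 at 0.53 did not (limma adjusted p = 0.093).

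CYC7, the cytochrome c isoform of low oxygen, showed the largest mean difference, 0.90 (SE 0.17, limma adjusted p = 0.025). Wild type read 9.63, 8.98 and 10.08, and the mutant 10.34, 9.55 and 11.51, so that the mutant was higher within every set although the ranges overlapped across sets. Its aerobic partner CYC1 differed by 0.35 without passing, and COX5B by 0.25.

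**Figure D1:**
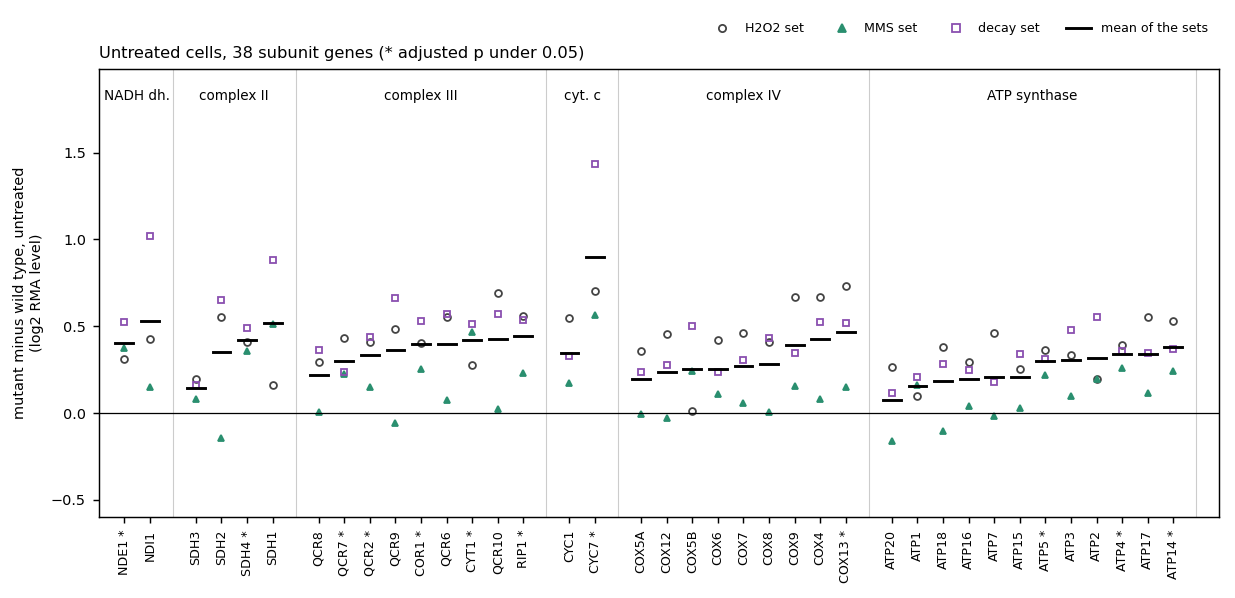
Mutant minus wild type in untreated cells for the 38 genes, on the log2 RMA scale. Circles, triangles and squares are the H2O2, MMS and decay sets, bars their mean, and asterisks mark limma adjusted p under 0.05. All 38 bars lie above 0, and the MMS set gives the smaller differences (median 0.13, against 0.41 and 0.40 in the H2O2 and decay sets).

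The number of passing genes rested on the fit. It was 0 without the array set as a block and 0 without the intensity trend in the error. With block and trend both kept, 33 members had an unadjusted p under 0.05 in limma, all higher. Of all probe sets 12.6% were higher and 15.4% lower at that threshold. With both H2O2-set arrays left out the number of passing genes was 4, and with both MMS-set arrays left out it was 31.

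The second comparison asked how H2O2 changed the members within 45 min. In both strains most members dipped with a low point at 25 min and were back near their start by 45 min. A spline test in limma called 24 members lower and 5 higher in wild type, and 29 lower and 5 higher in the mutant. Over all probe sets the called shares were 28.4% lower and 28.9% higher in wild type, and 11.1% lower and 13.3% higher in the mutant. The direction is the sign of the largest difference from the 0 min array of the same course. S. pombe probe sets were called at 3.84% in wild type and 0.172% in the mutant, and their part in the counts was not tested.

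The lowest level stood at 25 min for 24 of 38 members in wild type (63.2%) and 32 of 38 in the mutant (84.2%). Of all probe sets 12.4% and 15.5% had their lowest level there. In wild type the median change of the members was -0.13 at 5 min, -0.12 at 10 min, -0.18 at 15 min, -0.27 at 25 min, -0.11 at 35 min and 0.06 at 45 min. The mutant ran through -0.07, -0.14, -0.26, -0.38, -0.22 and 0.09 at the same times. At 25 min 35 of 38 members in wild type and 36 of 38 in the mutant lay below their start, while the median of all probe sets was -0.02 and -0.03. The dip was thus short and small. The residual SD about the spline had a median of 0.061 over members (0.036 to 0.24). Each change is a difference between single arrays. An error that members share on the 25 min array cannot be told apart from a dip by this SD.

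Complexes III and IV dipped the most. Their medians at 25 min were -0.35 and -0.32 in wild type and -0.51 and -0.44 in the mutant, against -0.22 and -0.28 for complex II and -0.25 and -0.26 for ATP synthase. In wild type 6 of 9 complex III genes, 8 of 9 complex IV genes and 8 of 12 ATP synthase genes passed as lower. In the mutant these counts were 9, 9 and 8. Differences between complexes were not tested.

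COX4, a complex IV subunit, had the largest fall in wild type. Its level went from 12.23 at 0 min through 12.02, 11.90 and 11.77 at 5, 10 and 15 min to 11.50 at 25 min. It then returned to 11.96 and 12.25 at 35 and 45 min (largest change -0.73, limma adjusted p = 0.0006). In the mutant COX4 went from 12.90 to 12.21 at 25 min and back to 12.88 (-0.69, limma adjusted p = 0.0018). COR1 of complex III followed the same path, from 11.90 to 11.29 and back to 11.80 in wild type and from 12.30 to 11.62 and back to 12.26 in the mutant. Both falls of COR1 passed in limma (-0.61 and -0.68, adjusted p = 9.7e-05 and 0.0001).

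In wild type the next falls were those of QCR9 (-0.66, limma adjusted p = 0.0025), COX5A (-0.58, 0.0002) and the ATP synthase genes ATP20 (-0.57, 0.033) and ATP2 (-0.55, 0.0017). ATP2 encodes the catalytic beta subunit. In the mutant they were followed by RIP1 (-0.65), COX5B (-0.63), SDH2, the iron-sulfur subunit of complex II (-0.63), ATP20 (-0.57), QCR2 (-0.56) and COX6 (-0.55), each with a limma adjusted p of 0.012 or less. The smallest called falls of wild type included SDH3 and COX5B, at -0.18 each, and both turned to 0.17 when 1 pair of arrays was dropped (25 min for SDH3 and 5 min for COX5B).

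A few members went the other way. CYC1 rose from 11.87 to 13.59 within 5 min of H2O2 in wild type and stayed between 13.53 and 13.91 until 35 min (largest change 2.04, limma adjusted p = 0.0013). Its mutant level rose from 12.42 to 13.98 at 15 min (1.56, limma adjusted p = 0.02). The other 4 members called higher in wild type were CYC7 (1.83), SDH4 (0.34), QCR10 (0.30) and ATP15 (0.15), and in the mutant CYC7 (1.07), SDH4 (0.36), SDH3 (0.31) and ATP15 (0.25). Of these small rises, QCR10 and ATP15 in wild type and SDH3 and ATP15 in the mutant changed sign in at least 1 alternative, and SDH4 lost its call in both strains when any pair from 10 to 45 min was dropped, with a value of -0.15 in the mutant without the 45 min pair. The NADH dehydrogenase gene NDE1 fell by 0.27 and 0.26 in the 2 strains. NDI1 did not pass in wild type (0.26, limma adjusted p = 0.43), and its called change of -0.54 in the mutant (limma adjusted p = 0.016) turned to 0.56 and 0.55 under the 2 other scalings.

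**Figure D2:**
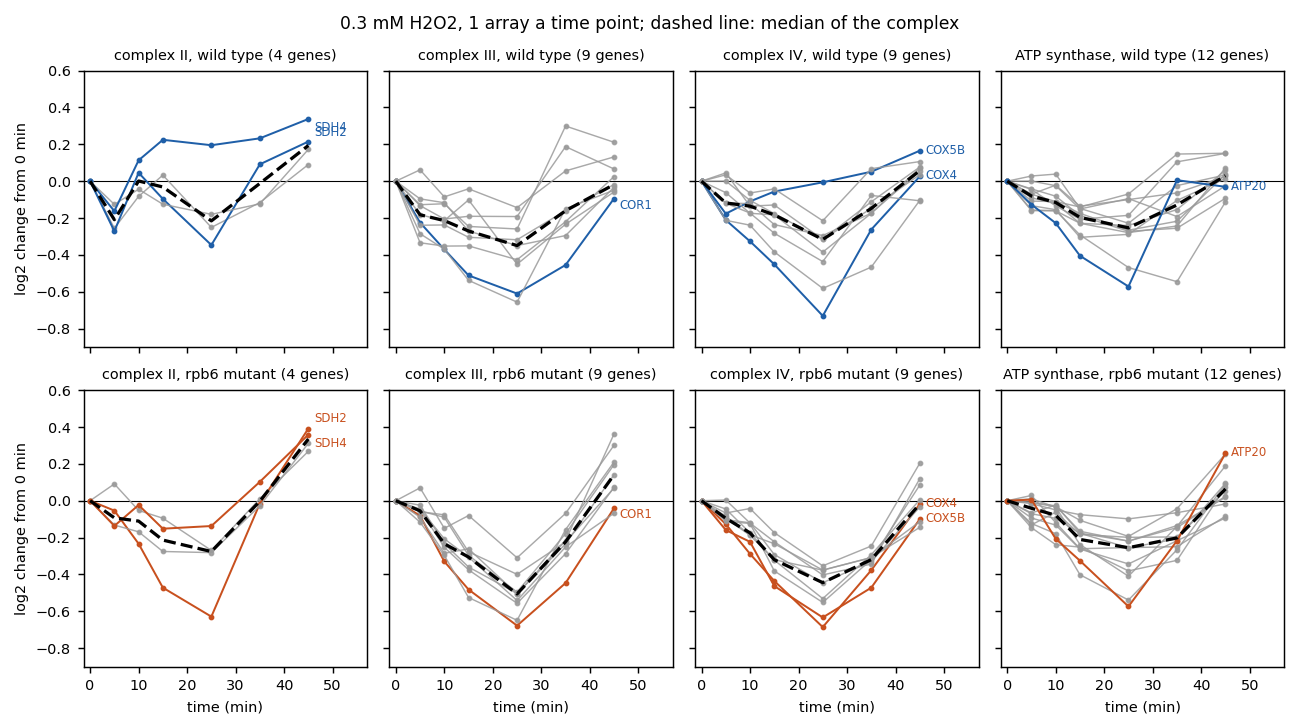
Log2 change from the 0 min array after 0.3 mM H2O2, by complex and strain. Thin lines are genes, dashed lines the median of the complex, and coloured lines the labelled genes. The dip at 25 min, to -0.35 and -0.51 in complex III, is followed by a return to near 0 at 45 min.

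Of the called members, 15 of 29 in wild type and 15 of 34 in the mutant held their call under every one of the 11 alternatives, among them COX4, COX5A, COR1, QCR7 and ATP7 in both strains. A contrast of 25 to 45 min with 5 to 15 min, which averages over the dip and the return, called 0 members in limma in either strain (9.01% and 4.5% of all probe sets), with 1 member at an unadjusted p under 0.05 in each.

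The third comparison followed MMS for 180 min, and the direction varied by complex. In wild type all complex II genes were called higher. Most complex IV genes were called lower in both strains and their median had not returned by 180 min. Complex III and ATP synthase were split. Differences between complexes were not tested. In limma 16 members were called higher and 17 lower in wild type, and 9 higher and 19 lower in the mutant. The background was high: of all probe sets 45.9% were called higher and 41.5% lower in wild type, and 44.6% and 39.3% in the mutant. S. pombe probe sets were called at 13.7% and 17.1%, and their part was not tested.

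All 4 complex II genes were called higher in wild type, and 3 of 4 in the mutant. SDH2 read 10.84 at 0 min, 11.48 at 40 min, 12.06 at 120 min and 11.83 at 180 min in wild type. In the mutant the same probe set read 10.69, 11.29, 11.82 and 11.83 (largest changes 1.22 and 1.21, limma adjusted p = 1.4e-05 and 1.1e-05). SDH1 peaked earlier, from 9.25 to 10.33 at 40 min in wild type, and was at 9.47 by 180 min (1.08, limma adjusted p = 5.6e-05). SDH4 rose by 0.90 and SDH3 by 0.40 in wild type, and SDH4 in the mutant did not pass (0.41, limma adjusted p = 0.071). The median of the complex reached 0.92 at 80 min in wild type and 0.42 in the mutant. By 180 min it was 0.36 and 0.05, and the latter was -0.02 with the arrays centred.

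Complex IV ran the opposite way in both strains. The median of its 9 genes fell from 0.06 at 20 min to -0.52 at 80 min, -0.80 at 120 min and -1.10 at 180 min in wild type. In the mutant it was 0.08, -0.78, -0.85 and -1.10 at those times. In each strain 7 of 9 genes were called lower. COX4 fell most, from 12.26 to 9.93 in wild type and from 12.34 to 9.95 in the mutant (-2.33 and -2.38, limma adjusted p = 6.2e-08 and 6.9e-08). COX5A (-1.56), COX7 (-1.31), COX6 (-1.28), COX8 (-1.10), COX12 (-0.98) and COX9 (-0.62) followed in wild type. COX5B (1.44) and COX13 (0.42) were called higher there, and the call of COX13 was lost when the 100 or 120 min pair was dropped. COX13 did not pass in the mutant (0.20, limma adjusted p = 0.51).

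The 9 complex III genes split into 4 called higher and 4 called lower in wild type, and 1 higher and 6 lower in the mutant. QCR8 rose from 12.50 to 13.20 in wild type and from 12.51 to 13.20 in the mutant (0.70 and 0.69, limma adjusted p = 0.0014 and 0.0032). RIP1 fell from 11.55 to 10.10 and from 11.78 to 9.93 (-1.45 and -1.85, limma adjusted p = 0.024 and 0.007). The wild-type call of RIP1 did not survive the loss of the 40 or 100 min pair. Control probe sets on this chip also read RIP1, and in wild type their largest changes were -1.85 at the 5′ end, -1.56 in the middle and -0.92 at the 3′ end of the transcript. The direction was thus common to them while the size was not. COR1 was called higher in wild type (0.49) and lower in the mutant (-0.80), and CYT1 was called lower in both (-0.81 and -1.72), although its wild-type value was 0.54 without the 180 min pair.

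The ATP synthase genes went both ways around a median near 0. That median was between -0.29 and 0.09 in wild type and between -0.32 and -0.07 in the mutant. In wild type 4 of 12 genes were called higher and 4 lower, and in the mutant 2 and 4. ATP3, the gamma subunit gene, fell from 12.70 to 11.76 at 40 min in wild type and was at 12.44 at 120 min (-0.94, limma adjusted p = 0.00087). ATP1, the alpha subunit gene, rose from 13.55 to 13.99 (0.44, limma adjusted p = 5.6e-05). ATP3 was lower in the mutant too (-0.76), and ATP1 higher (0.23).

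The later part of the course had its own test, the mean of 100 to 180 min minus that of 20 and 40 min. In wild type 10 members rose and 12 fell from early to late (28.3% and 24.3% of all probe sets), and in the mutant 4 rose and 12 fell (31.3% and 22.6%). ATP synthase gave 8 of 12 genes higher late in wild type, among them ATP14 (0.49), ATP7 (0.41), ATP5 (0.40) and ATP4 (0.34), and 0 lower. In the mutant 2 of its 12 genes were higher late, ATP7 (0.27) and ATP4 (0.20). Complex IV gave 7 of 9 lower late in both strains, led by COX7 (-1.27 and -1.21) and COX4 (-1.25 and -1.21). SDH2 was higher late in both (0.55 and 0.62, limma adjusted p = 0.0028 and 0.0015).

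**Figure D3:**
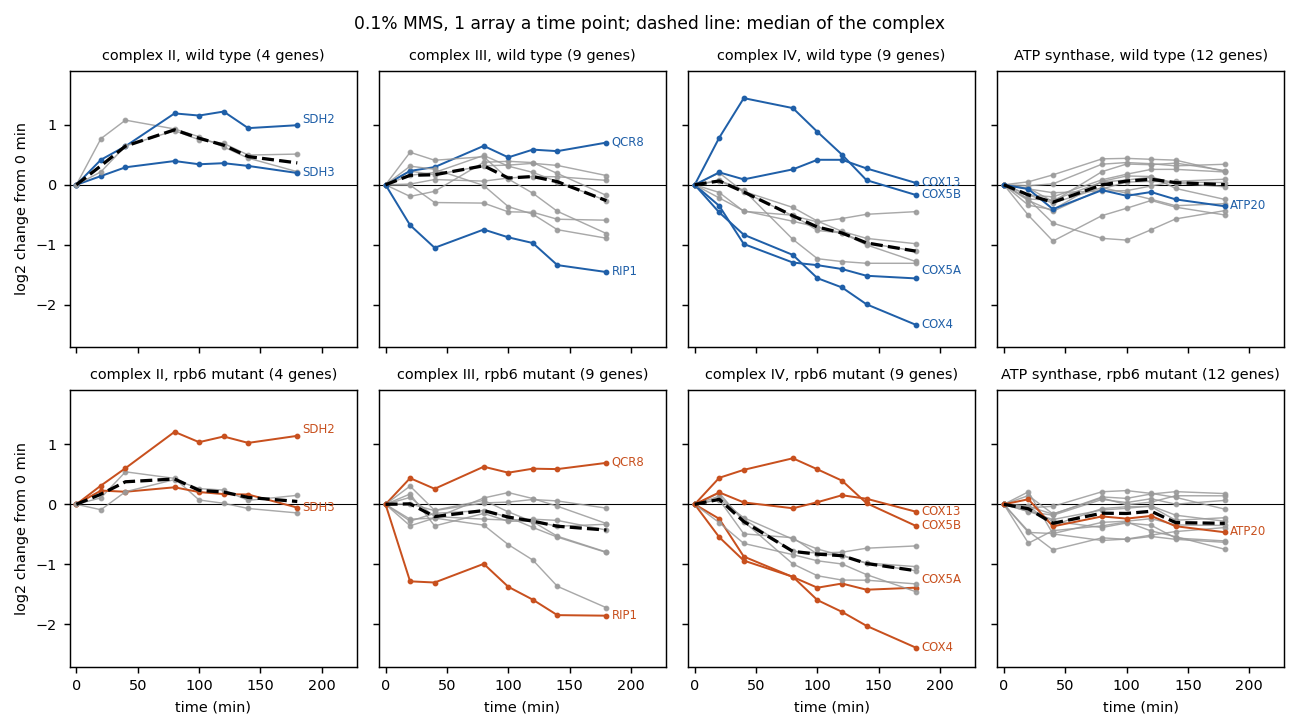
Log2 change from the 0 min array in 0.1% MMS, by complex and strain, drawn as for H2O2. Complex II lies above 0 at 80 min (medians 0.92 and 0.42), complex IV falls to -1.10 in both strains except for COX5B and COX13, and the ATP synthase median stays near 0 while single genes such as ATP3 (-0.94 and -0.76) leave it.

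Of the called members, 25 of 33 in wild type and 22 of 28 in the mutant held their MMS call under every one of the 12 alternatives. ATP7 changed sign in both strains, and ATP14 in wild type, when the arrays were centred on their median.

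Cytochrome c and subunit 5 of cytochrome c oxidase are each made in alternative forms. The NADH dehydrogenases Ndi1 and Nde1 are separate enzymes on opposite faces of the inner membrane, set side by side here as a pair. In H2O2 the genes of a pair mostly had the same direction. CYC1 and CYC7 were called higher in both strains, and COX5A and COX5B lower in both. The wild-type value of COX5B was -0.18, at 5 min, and turned to 0.17 without the 5 min arrays. NDE1 and NDI1 were called lower in the mutant, where the sign of NDI1 turned under both other scalings. In MMS the directions within a pair differed, and no test of one gene of a pair against the other was run. Cyc1 and Cox5a are the forms of aerobic cells, whereas CYC7 and COX5B are known as genes induced when oxygen or heme is low. Cyc1 and Cyc7, and Cox5a and Cox5b, resemble each other in sequence, and binding of one transcript to the probes of the other was not tested.

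In MMS the members of the cytochrome c pair moved far in opposite directions. CYC1 in wild type read 12.004, 12.16, 11.16, 9.04, 8.68, 8.31, 8.13 and 8.31 at 0, 20, 40, 80, 100, 120, 140 and 180 min. CYC7 read 8.98, 11.47, 12.61, 12.76, 12.38, 12.18, 11.72 and 11.59. The largest changes were -3.87 and 3.78 (limma adjusted p = 1.9e-06 and 1.5e-07), the widest of all members in either direction. In the mutant CYC1 fell from 12.17 to 8.12 at 140 min and CYC7 rose from 9.55 to 12.56 at 80 min (-4.05 and 3.01, limma adjusted p = 1e-06 and 8.5e-07). In H2O2, by contrast, both genes of the pair were called higher in both strains.

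The COX5 pair parted in MMS as well, and COX5B came back. COX5B in wild type read 10.38, 11.16, 11.82, 11.65, 11.26, 10.88, 10.45 and 10.21 over the 8 arrays, and COX5A fell from 12.89 to 11.33. The rise of COX5B was 1.44 (limma adjusted p = 6.8e-08), and the fall of COX5A was -1.56 (limma adjusted p = 3.7e-07). In the mutant COX5B read 10.62, 11.06, 11.19, 11.39, 11.20, 11.02, 10.64 and 10.26, a rise of 0.77 (limma adjusted p = 2.7e-06), and COX5A fell from 12.88 to 11.46.

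Of the NADH dehydrogenases, NDE1 fell from 11.9996 to 10.02 in MMS in wild type and from 12.37 to 10.34 in the mutant (-1.98 and -2.04, limma adjusted p = 2.7e-06 and 2.8e-06). NDI1 went from 8.76 to between 9.43 and 9.61 from 20 to 120 min in wild type, and was at 8.65 at 180 min (0.85, limma adjusted p = 0.00034). Its rise in the mutant was 0.59 (limma adjusted p = 0.0082) and was lost without the 180 min arrays. The largest changes of NDI1 and NDE1 in MMS thus had opposite signs in both strains, although both genes were at their lowest at 180 min. NDE2, a second external enzyme that is no member, rose by 3.48 in wild type.

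**Figure D4:**
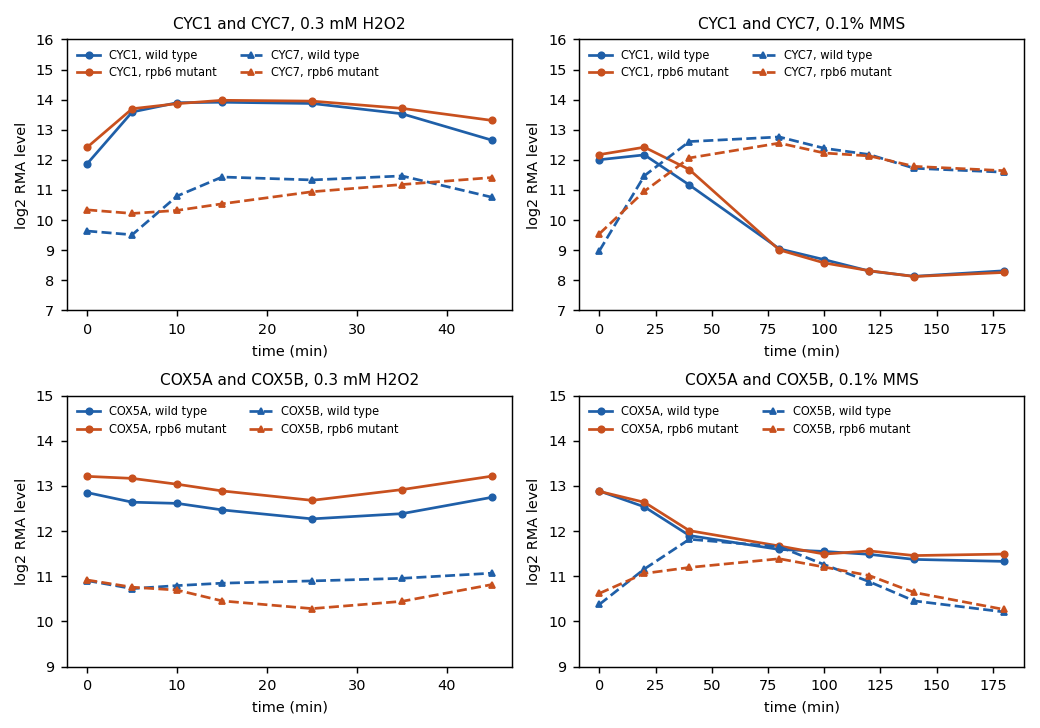
Log2 RMA level of CYC1, CYC7, COX5A and COX5B against time in H2O2 (left) and MMS (right), wild type in blue and mutant in orange, 1 array a point. In MMS the largest wild-type change is -3.87 for CYC1 and 3.78 for CYC7, and COX5B rises by 1.44 and returns. Levels of different genes on one axis are not comparable.

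COX5B was the 1 member whose course differed between the strains in limma, in both stresses. In H2O2 its wild-type level was 10.90, 10.73, 10.79, 10.85, 10.90, 10.95 and 11.07 over 45 min. The mutant read 10.92, 10.76, 10.69, 10.45, 10.28, 10.44 and 10.82. The strains thus started together, and the mutant was lower from 10 to 45 min. The largest difference in change was -0.63 (limma adjusted p = 0.031), where 1.91% of all probe sets passed as lower, and in MMS it was -0.87 (limma adjusted p = 0.026), where 1.77% did.

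Both calls were weak. The H2O2 call was lost with a quadratic in place of the spline (limma adjusted p = 0.093) and when any pair from 10 to 45 min was dropped, and over all alternatives the adjusted p lay between 0.025 and 0.25. The MMS call was lost with the quadratic and when any pair from 20 to 140 min was dropped, and the adjusted p lay between 0.026 and 1. At an unadjusted p under 0.05 there were 9 members in H2O2 and 8 in MMS, all with the mutant below wild type, against 11% and 7.86% of all probe sets in that direction and 8.57% and 10.7% in the other. CYC7 in H2O2 had the largest difference of all members, -1.59, and did not pass (limma adjusted p = 0.13): at 15 min it had risen by 1.795 in wild type and by 0.201 in the mutant.

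The decay courses asked how fast the members' mRNA was lost once transcription stopped, and whether H2O2 changed that. Slopes of log2 level on time are given per min relative to the average mRNA, so that a value above 0 is a slower loss than average. In the reference course of wild type 36 members had a slope above 0 and 2 below, and all 38 passed in limma, where 41.4% of all probe sets passed above 0 and 33.6% below. The 2 lost faster than average were CYC1 (-0.025) and NDE1 (-0.0057). In the mutant 29 passed above 0 and 2 below (35% and 34.9% of all probe sets). S. pombe probe sets passed at 9.67% in the wild-type reference course, and their part was not tested.

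One pair of neighbouring arrays stood apart. In the mutant reference course, from 10 min to 20 min, 77% of all probe sets and 28 of 38 members moved against their own change from 0 to 50 min, whereas from one array to the next elsewhere in the decay courses 14% to 41.5% of probe sets did. CYC7, for example, read 11.51, 11.58, 12.28, 11.74, 12.93, 13.38 and 13.65 in that course. The arrays were kept as labelled. Without both of them the mutant reference slope passed for 31 members, its difference from wild type for 27 and the slope change in the mutant for 15, in place of 31, 27 and 14. With their times exchanged these counts were 31, 28 and 19.

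The median slope in the reference course of wild type was 0.0243 for complex II, 0.0184 for complex III, 0.00952 for complex IV and 0.00792 for ATP synthase. The highest slopes were those of CYC7 (0.0732, SE 0.0091), NDI1 (0.0461) and SDH1 (0.0391). On the array scale these transcripts went up after phenanthroline: CYC7 read 10.08, 10.58, 11.80, 12.83, 13.29, 13.56 and 13.71 over the 7 arrays from 0 to 50 min. NDI1 rose from 9.32 to 11.59 over the same arrays. Half-lives were fitted to ratios that had been scaled to a common decay of about 26 min. With the gains of CYC7, NDI1 and SDH1 in wild type these ratios gave no fitted decay, and no reference half-life was obtained. The wild-type reference slopes of these genes are thus no rates of loss. Slope changes and strain differences taken from them cannot be read as changes in decay. Smaller gains, such as that of COX4, still gave a half-life (44.0 min).

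With H2O2 given first, the slope of 37 of 38 members was lower in H2O2 than in the reference course of wild type. In limma 29 passed as lower and 1 as higher, where 5.28% of all probe sets passed as lower and 5.37% as higher. By complex these were 2 of 4 genes of complex II, 8 of 9 of complex III, 8 of 9 of complex IV and 10 of 12 of ATP synthase, together with NDI1. Complex medians in H2O2 were 0.0170, 0.0116, 0.00106 and 0.00186 for complexes II, III, IV and ATP synthase, so complexes II and III kept more than complex IV and ATP synthase did. The slope in H2O2 itself passed above 0 for 22 members and below 0 for 5 (40.2% and 31.5% of all probe sets), and in the mutant for 7 and 7 (29% and 31.2%). S. pombe probe sets passed the test of the change at 0.572%.

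COX4 of wild type read 12.31, 12.36, 12.39, 12.58, 12.84, 12.99 and 12.99 in the reference course at 0 to 50 min. With H2O2 it read 11.93, 12.20, 11.997, 12.14, 12.13, 12.05 and 11.997, so the relative gain was gone (slope change -0.0158 per min, limma adjusted p = 6.8e-05). Other large changes were those of NDI1 (-0.0259, limma adjusted p = 0.0035), SDH1 (-0.0174, 0.0046), COX5A (-0.0139, 5.7e-06), CYT1 (-0.0137, 0.0058), RIP1 (-0.0118, 0.0073) and ATP14 (-0.0112, 0.00031). The smallest changes within their complexes were SDH4 (-0.0046), QCR8 (-0.0013), COX9 (-0.0067) and ATP1 (-0.0035). COX5B (-0.0090) and CYC7 (-0.0086) did not pass.

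CYC1 was the exception. Its wild-type level fell from 12.10 to 10.97 in the reference course, and with H2O2 it started at 13.73 and read 13.90 at 50 min, never leaving 13.73 to 14.13. The slope change was 0.0292 per min (SE 0.0032, limma adjusted p = 1.4e-06), and 0.0122 in the mutant (limma adjusted p = 0.042). Already at the start of the H2O2 decay course, 7 min into H2O2, CYC1 stood 1.63 above the reference start in wild type and 1.34 in the mutant, whereas 31 and 33 of the 38 members stood lower (81.6% and 86.8%, against 64% and 69.3% of all probe sets, 1 array each and no test).

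In the mutant the change in H2O2 had the same sign for 36 of 38 members. It passed as lower for 13 and as higher for CYC1, with 1.49% and 1.42% of all probe sets. The 13 were QCR2, QCR6, QCR7, COR1, RIP1, COX4, COX5A, COX5B, COX6, COX7, ATP20, SDH3 and NDI1. The strain difference of the change was called for 0 members in limma (0.63% of all probe sets), 7 had an unadjusted p under 0.05, and the lowest adjusted p was 0.063, for COX8.

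The reference slopes themselves differed between the strains. In limma 26 members had a lower slope in the mutant and 1, CYC1, a higher one, where 19.1% of all probe sets passed as lower and 17.7% as higher. All 4 complex II genes and all 9 complex III genes were among the 26, together with 9 of 12 ATP synthase genes, 3 of 9 complex IV genes and NDI1. NDI1 (-0.0329) and SDH1 (-0.0238) differed most. In H2O2 17 members had a lower slope in the mutant and COX8 a higher one (0.0068), against 23% and 18.7% of all probe sets.

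**Figure D5:**
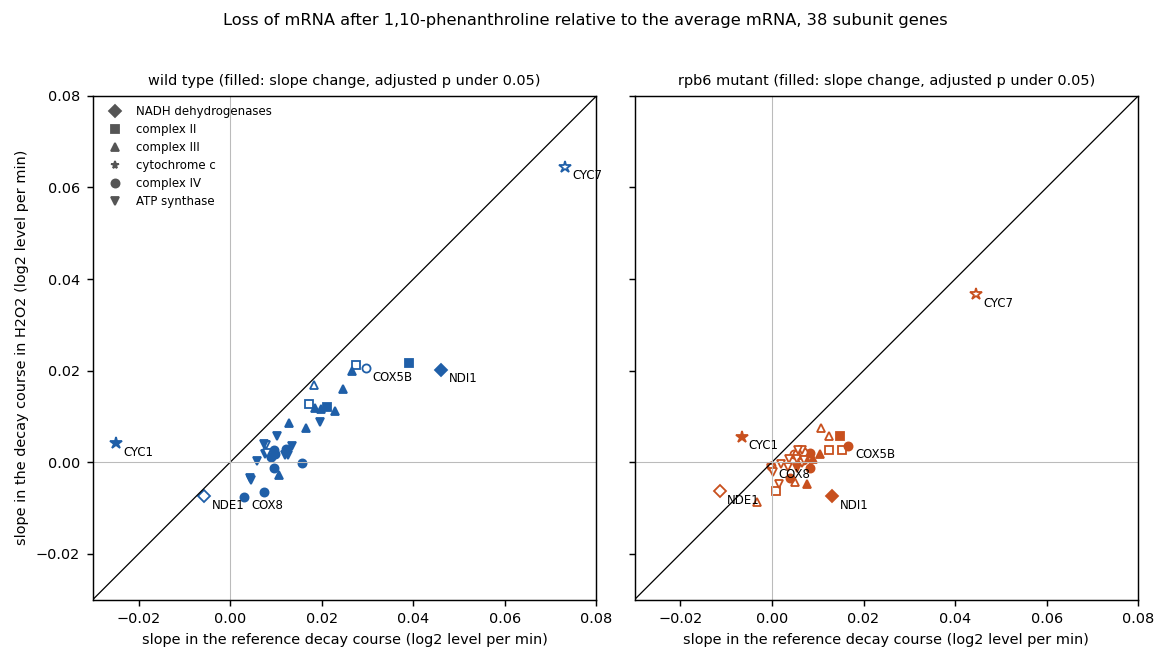
Slope of log2 level on time after 1,10-phenanthroline in H2O2 against that in the reference course, per min and relative to the average mRNA, for the 38 genes. Filled symbols passed the test of the slope change. In wild type 37 of 38 genes lie under the diagonal and CYC1 lies above it.

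Half-lives describe the same courses on the scale that the deposited ratios were set to, with a common decay of about 26 min. The fit was good in both wild-type courses for 31 members, and the median half-life was 35.3 min without and 28.1 min with H2O2. Of these 29 were shorter in H2O2, and NDE1 and CYC1 were longer. Over all genes fitted the median was 22.9 and 23.7 min, and 1835 of 4353 were shorter. Complex III went from 50.6 to 34.3 min (7 genes), complex IV from 34.7 to 27.7 min (8 genes) and ATP synthase from 32.1 to 26.9 min (12 genes). COX4 went from 44.0 to 27.3 min and COX5A from 31.0 to 21.1 min, whereas CYC1 went from 17.8 ± 1.46 to 32.2 ± 2.81 min (SE of the fit). In the mutant 36 members went from a median of 29.9 to 26.2 min, and 33 of them were shorter. Over all genes fitted in the mutant the median was 24.4 and 24.6 min, and 2259 of 4851 were shorter.

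The H2O2 abundance course and the decay courses were measured on different arrays of different cultures, so they can be set against each other. All 24 wild-type members called lower in abundance had a slope change below 0, and 20 of them passed as lower and 0 as higher. Of the 1621 probe sets called lower in abundance over the whole array, 468 (28.9%) had a slope change below 0, 64 passed as lower and 212 as higher. In the mutant the slope change was below 0 for 28 of the 29 members called lower, of which 12 passed as lower, against 247 of 635 probe sets (38.9%). Nearly all members had a slope change below 0 whatever their call in level, so within the members these counts cannot tie level to decay. Most probe sets called lower had a slope change above 0. The low point in level was at 25 min, whereas the slope calls rested on decay arrays up to 50 min. Of the 5 members called higher in wild type, 4 had a slope change below 0, 2 passed as lower and CYC1 passed as higher, against 68.2% below 0 among all probe sets called higher. In the mutant 4 of 5 were below 0, against 65.8%.

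The counts of slope changes depended on which decay arrays were kept, early as well as late. With the arrays of 0 to 30 min alone, 9 members in place of 30 passed in wild type and 0 in place of 14 in the mutant, and without the 40 min arrays 19 passed in wild type. In the mutant 0 passed when the 5, 40 or 50 min pair was dropped, 5 without the 10 min pair and 7 without the 0 min pair. Among members called lower in abundance, the number whose slope change passed as lower ran from 6 to 21 in wild type and from 0 to 15 in the mutant over all alternatives, with 6 and 0 for the arrays of 0 to 30 min. The number with a slope change below 0 ran from 22 to 24 and from 24 to 28.

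Of the other genes of the pathway, most assembly factors were called higher in H2O2 in wild type, while the median of the carriers dipped and returned as that of the members did. Of 102 genes in 7 further lists, 93 were measured. Over all probe sets 28.9% were called higher and 28.4% lower in H2O2 in wild type, and 13.3% and 11.1% in the mutant. Of 37 assembly factors, which insert cofactors and join subunits, 26 were called higher and 2 lower in wild type, with a median of 0.49 at 25 min, and 19 and 0 in the mutant, with a median of 0.26. CYT2, the lyase that attaches heme to cytochrome c1, rose by 1.504 in wild type (limma adjusted p = 0.00027), PET117 by 1.14, SDH6 by 1.09 and SHY1 by 1.04. Of 10 genes of ubiquinone synthesis 5 were called higher in wild type and 1 in the mutant. Of 8 heme synthesis genes 2 were called higher and 3 lower in wild type, and 1 and 3 in the mutant, with HEM3 at 1.00 and HEM1 at -0.82.

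Paralogs and inhibitors split. Among 10 other subunits, paralogs and inhibitors, 6 were called higher and 4 lower in H2O2 in wild type, and 4 and 4 in the mutant. SHH4, a paralog of SDH4, rose by 2.53, NDE2, a second external NADH dehydrogenase, by 1.62 and STF2 by 1.65, while INH1, an inhibitor of ATP synthase, fell by 0.98. HAP4, the activating subunit of the regulator of respiratory genes, was called higher in wild type (0.77, limma adjusted p = 0.00011) and lower in the mutant (-0.68, limma adjusted p = 4.8e-05), and the strain difference did not pass (limma adjusted p = 0.083). Of 11 translation activators of mitochondrial mRNAs 3 were called higher and 1 lower in wild type and 0 in the mutant, and of 5 carriers 2 and 2, and 0 and 1, with AAC3, a nucleotide carrier gene, at -1.43. The carrier median in wild type was -0.20 at 25 min, lowest at 35 min (-0.22) and -0.03 at 45 min. In the mutant it was -0.15, -0.08 and -0.02 at these times. At 25 min 3 of 5 carriers lay below their start in wild type and 4 of 5 in the mutant. Of 12 transcription regulators 5 were called higher and 2 lower in wild type, and 1 and 3 in the mutant.

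In MMS 21 of 37 assembly factors were called higher and 11 lower in wild type, and 18 and 8 in the mutant. The shares over all probe sets were 45.9% higher and 41.5% lower in wild type, and 44.6% and 39.3% in the mutant. SDH8 (1.89), COX20 (1.82) and SDH6 (1.78) rose most and COX17, a copper chaperone, fell by 1.76. SHH3 (3.55), NDE2 (3.48), SHH4 (2.85) and STF2 (2.69) rose among the paralogs, and HEM3 (-2.50) and HEM13 (-1.87) fell among the heme genes, of which 3 were called higher and 5 lower. Of the translation activators 1 was called higher and 8 lower. Of the carriers 1 was called higher and 3 lower, with AAC3 at -2.16 and MIR1, the phosphate carrier gene, at -1.31. Of the regulators 9 were called higher, HAP4 (0.96) among them, and 1 lower, MOT3 (-1.45). Ubiquinone genes gave 7 higher and 3 lower, with COQ4 at 2.12.

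In wild type the slope change in H2O2 passed as lower for 3 of 37 assembly factors, led by CYT2 (-0.0215). It also did so for 5 of 10 other subunits, paralogs and inhibitors, 2 of 8 heme genes, 1 of 5 carriers and 1 of 12 regulators. It passed as higher for 0 genes of these lists. Over all probe sets 5.28% passed as lower and 5.37% as higher. In the untreated mutant, 1 assembly factor, COX20 (0.48, limma adjusted p = 0.042), and the ATP synthase inhibitor genes INH1 (0.54) and STF1 (0.45) were higher than in wild type. HAP4 read 0.75 higher and did not pass (limma adjusted p = 0.051). In that test 3.92% of all probe sets passed as higher. Of all the further genes, the strain contrast of a course passed for HAP2 in MMS (-0.56, limma adjusted p = 0.032), and that of the slope change for CYT2 (0.0257, limma adjusted p = 0.0094).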

How the data were processed

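RMA was run by the authors to give the deposited log2 levels, whose values appear, from the values alone, to fall into 3 sets normalized apart: 14 H2O2, 16 MMS and 28 decay arrays. The deposited table of fold changes holds log2 values for both stresses and, for decay, linear ratio values to 0 min that the authors scaled at each time point to a common decay; from these, half-lives were fitted as exponentials with a free start (R2 above 0.9).

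Tests were run in limma 3.58.1 (R 4.3.3) with an intensity trend over 5716 of 10928 probe sets, Benjamini-Hochberg adjusted, and passed under 0.05: the untreated strains with the set as block, stress courses as natural splines with 3 degrees of freedom (F test), and slopes over all 28 decay arrays. The error of a course is the scatter about its curve. Of the tested probe sets 5498 carried 1 gene symbol and 218 none. Same-numbered untreated arrays share a set, and their deviations from the strain means correlated at 0.661, 0.818 and 0.737. Scripts were tested on simulated data. Fits used Python 3.11.15, scipy 1.17.1, numpy 2.4.6 and pandas 2.3.3, figures matplotlib 3.10.9.

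The members and lists were chosen with earlier results of these data known. Named genes are the highest and lowest of each complex, the isoform pairs and the NADH dehydrogenase pair. Passing members up to 12 by size, and up to 4 passing genes of each further list, are also named. From the assembly list a duplicate alias of COR1 was dropped. Alternatives were other scalings, no trend, no block, a quadratic, a filter on dim probes, fewer decay times, other half-life fits, and leaving out each replicate or time point. The exchange of 2 mutant reference arrays, whose levels run against the course, was added after seeing the data. No sequences are given.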

Additional observations from a re-analysis of the deposited data

Results flagged for a closer look

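COX5B, the hypoxic form of subunit 5 of cytochrome c oxidase, was singled out because its course differed between the strains in a test of the difference itself, in both stresses. In H2O2 the largest difference, mutant change minus wild-type change, was -0.63 on the log2 scale (limma adjusted p = 0.031). In MMS it was -0.87 (limma adjusted p = 0.026), with the mutant below wild type at 40 min. Each stress has 1 culture per strain, so a difference between strains cannot be told apart from a difference between cultures. No group was large enough for a check of single outlying arrays: the largest group holds 3.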

How the results depend on the processing

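Of 8930 member values recomputed under the alternatives, 8238 stayed on the same side of the threshold (260 of them uncalled values that changed sign), 534 lost and 132 gained a call with the same sign, and 26 called values changed sign. With no replicate block, and without the intensity trend, the 12 members higher in the untreated mutant became 0, and leaving out 1 replicate gave 4 (without the H2O2-set pair) to 31 (without the MMS-set pair). With a quadratic the 1 member called between strains became 0 in each stress, and with 1 time point left out it was 0 to 3 in H2O2 (3 without the 5 min arrays) and 0 to 1 in MMS. With the arrays of 0 to 30 min alone, the calls for slopes in H2O2 were 16 in place of 27 in wild type and 2 in place of 14 in the mutant, for the mutant reference slope 10 in place of 31, for the slope change 9 in place of 30 and 0 in place of 14, and for the strain difference in H2O2 8 in place of 18. Leaving out 1 decay time point gave 4 (without 50 min) to 13 calls for the mutant slope in H2O2, which was 9 without 5 min, 19 to 31 for the slope change in wild type, 0 to 15 in the mutant and 0 to 1 for its strain difference. Centring the arrays gave 9 slope changes in the mutant, and quantile normalization gave 1 strain difference of the change. Exchanging the 10 and 20 min mutant reference arrays, a setting chosen after seeing the data, gave 19 slope changes in the mutant. Under quantile normalization QCR10 (-0.28) and ATP15 (-0.19) in wild type and NDI1 (0.56) and ATP15 (-0.24) in the mutant turned sign in H2O2, and under centring SDH3 (0.17) and QCR8 (0.22) in wild type and NDI1 (0.55) and QCR8 (0.34) in the mutant did. Centring also turned ATP7 (-0.27) and ATP14 (-0.35) in wild type and ATP7 (-0.21) in the mutant in MMS. With 1 time point left out, H2O2 values in wild type ran from -0.26 to 0.30 for QCR10, -0.18 to 0.17 for SDH3 and -0.18 to 0.17 for COX5B. In the mutant they ran from -0.51 to 0.36 for QCR10, -0.54 to 0.52 for NDI1, -0.31 to 0.30 for QCR8, -0.28 to 0.31 for SDH3, -0.15 to 0.36 for SDH4 and -0.19 to 0.25 for ATP15, and CYT1 in MMS in wild type ran from -0.81 to 0.54. With the arrays of 0 to 30 min alone, slopes per min changed sign without passing for ATP18 in wild type in H2O2 (0.00099) and, in the mutant, for QCR9 (-0.00067) and CYC1 (0.00139) in the reference course, RIP1 in H2O2 (0.0004) and the change of COX7 (0.00078). Leaving out arrays or using the early ones leaves fewer arrays in the fit, and the causes of the other changes were not tested. With 1 array a time point, the number of arrays limits every call.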
